A study of Bos taurus with 7 samples.

Results

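The miRNAs bta-miR-140, bta-miR-320a, bta-miR-296, bta-miR-2407 and bta-miR-2436-5p, called here without the prefix for Bos taurus, are 5 of 744 bovine miRNAs on an array hybridised with plasma RNA of 7 Japanese-Black cows. They were chosen because their signals were dim, because their scaled levels leaned to the pregnant cows, and because their probes were 11 to 15 bases long. The cows had a controlled estrus, and blood was taken on day 21 after artificial insemination. The labels call 4 of them pregnant (numbers 1, 2, 3 and 4) and 3 non-pregnant (numbers 1, 3 and 4), each cow giving 1 array hybridised with 1 Cy3-labelled plasma RNA. How pregnancy was diagnosed, and the cows' ages, are not given in the sources used here. Plasma RNA is a bulk sample fed by many tissues, so fewer releasing cells and less RNA per cell cannot be told apart.

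A miRNA is a short RNA that guides an Argonaute protein to partly complementary messenger RNAs, mostly through the seed near its 5′ end, and lowers their translation or stability. Many miRNAs lie within longer host transcripts and can be made from the same primary RNA. In blood plasma they circulate bound to proteins or inside vesicles, and on this kind of array each is captured by short DNA probes complementary to it.

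The probe sequences are shown because each miRNA was read by a pair of probes that differ by 1 base, and those neighbours did not always give a signal together. Each is written 5′ to 3′ as the array design gives it, and the capital marks the 1 base that the longer probe has and the shorter one lacks.
miR-140, shorter probe (14 bases): tccgtggttctacc
miR-140, longer probe (15 bases): tccgtggttctaccC
miR-320a, shorter probe (12 bases): tcgccctctcaa
miR-320a, longer probe (13 bases): tcgccctctcaaC
miR-296, shorter probe (13 bases): ggaaagcctccgc
miR-296, longer probe (14 bases): ggaaagcctccgcC
miR-2407, shorter probe (12 bases): ccagcccttccc
miR-2407, longer probe (13 bases): ccagcccttcccA
miR-2436-5p, shorter probe (11 bases): cgccctcccga
miR-2436-5p, longer probe (12 bases): cgccctcccgaC

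These 10 probes were rich in G and C, with a median GC content of 69.2% against 60.0% over the 631 probes of 11 to 15 bases and 50.0% over all 1617 probes. The GC content was lowest in the shorter miR-140 probe, at 57.1%, and highest in the longer miR-2436-5p probe, at 83.3%. The longest stretch that a miR-320a probe shared with a probe of any other miRNA was 10 bases, with miR-320b. The probes of miR-140 shared at most 8 bases with another miRNA's probe, those of miR-296 at most 8, and those of miR-2407 and miR-2436-5p at most 7. For miR-2436-5p these 7-base runs were shared with miR-2305, miR-2328-3p, miR-2389 and miR-320a.

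The array design places the probes on the bovine assembly UMD 3.1 (bosTau6), and RefSeq's gene table on ARS-UCD2.0 gave the names of surrounding genes for all 5 miRNAs. That table holds gene spans only, so exons and introns were not told apart. Probe positions are given as the design lists them. Except for miR-320a they span 1 base less than the probe, and whether they count from 0 or 1 is not stated. The longer miR-140 probe was listed on chromosome 18, 37088200 to 37088213, and its gene MIR140 lies within the span of WWP2, a ubiquitin ligase gene. In mammals miR-140 is best known from cartilage. The longer miR-320a probe was listed at 2 places on chromosome 8, 72629974 to 72629986 and 70060448 to 70060460, and at 2 on chromosome 20, 16455550 to 16455562 and 15213980 to 15213992. RefSeq holds 2 genes for it. MIR320A-1, on chromosome 8, neighbours POLR3D, a subunit gene of RNA polymerase III, and MIR320A-2, on chromosome 20, lies within the span of RNF180. The signal of miR-320a can therefore come from either locus.

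The longer miR-296 probe was listed on chromosome 13, 58091991 to 58092003. MIR296 overlaps the long non-coding RNA gene LOC107133071, and GNAS is the nearest protein-coding gene on one side. GNAS encodes the stimulatory G protein alpha subunit, and its locus is imprinted in mammals, with some of its transcripts made from 1 parental allele only. The longer miR-2407 probe was listed on chromosome 29, 44088138 to 44088149, and MIR2407 lies within the span of CAPN1, the gene of the calcium-dependent protease calpain-1. The longer miR-2436-5p probe was listed on chromosome 5, 84244520 to 84244530. MIR2436 overlaps no other gene of the table and lies between BHLHE41, a transcription factor gene, and RASSF8. The mature sequences were not used here, so seeds are not compared.

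The arrays differed widely in brightness. The software called 45 to 101 miRNAs detected per array, and the summed signal of detected miRNAs ran from 12010 in non-pregnant 1 to 101000 in pregnant 3. Non-pregnant 1 had the fewest detected miRNAs and the lowest sum. Of the blood-cell miRNAs, miR-451, miR-486 and miR-223 were detected on all 7 arrays, miR-142-5p on 6, and miR-144 and miR-142-3p on 0. The 75th percentile used to scale each array was 606, 442, 1645 and 415 in pregnant 1 to 4, and 172, 1052 and 819 in non-pregnant 1, 3 and 4.

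All 5 miRNAs had the same detection pattern. Each was called detected on 6 of 7 arrays, and the array without a call was non-pregnant 1 every time. Of the 88 miRNAs detected on at least 3 arrays, 46 (52.3%) were not called on non-pregnant 1. For 31 (35.2%) calls were made for all 4 pregnant cows and 2 of the non-pregnant ones, and 30 (34.1%) lacked a call on non-pregnant 1 alone. A miRNA that leans to the pregnant cows is more likely to show this pattern, so nothing is read from its count among the 5. Where detected, each of them took between 0.0076% and 0.0444% of the array's summed signal. Against the median total of the miRNAs detected on the same array, 7 of their 30 totals were higher, 5 of them in pregnant 3, 1 in non-pregnant 3 and 1 in non-pregnant 4. By this measure the label dim held for all 5 in pregnant 1, 2 and 4, for all but 1 in each of non-pregnant 3 and 4, and for none in pregnant 3.

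The software sums the signals of a miRNA's detected probes into a total and calls the miRNA detected when a signal stands clear of its error, per the file headers. The totals are on a smaller scale than the probe signals given below. In pregnant 1, for example, the miR-296 total was 13.8, while its longer probe gave 20.8 and its shorter probe was below 0. The total signal of miR-296 was 13.8, 12.2, 31.9 and 8.32 in pregnant 1 to 4, and 23.6 and 13.2 in non-pregnant 3 and 4. As a share of the summed signal it was 0.0353%, 0.0356%, 0.0316% and 0.0352% in pregnant 1 to 4, against 0.0335% and 0.0226% in non-pregnant 3 and 4. The share of miR-296 was thus nearly constant among pregnant cows, and non-pregnant 3 lay within their range.

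The total signal of miR-140 was 5.97, 10.7, 32.2 and 9.75 in pregnant 1 to 4, and 17.02 and 4.45 in non-pregnant 3 and 4. That of miR-320a was 14.1, 6.34, 17.8 and 7.77 in the pregnant cows and 12.1 and 14.4 in the same non-pregnant cows. In both miRNAs pregnant 3 was the brightest, and non-pregnant 3 lay within the range of the pregnant cows. Non-pregnant 4 lay below every pregnant cow for miR-140 and inside their range for miR-320a.

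The total signal of miR-2407 was 13.1, 10.5, 17.02 and 5.47 in pregnant 1 to 4, and 12.5 and 15.3 in non-pregnant 3 and 4. That of miR-2436-5p was 14.2, 9.90, 32.0 and 10.5 in pregnant 1 to 4, and 17.04 and 16.6 in non-pregnant 3 and 4. For both miRNAs the non-pregnant cows with a call lay inside the pregnant range and above pregnant 1, 2 and 4, except that non-pregnant 3 was below pregnant 1 for miR-2407. Such totals are not scaled for array brightness. As a share of the summed signal, miR-2436-5p was at 0.0363%, 0.0288%, 0.0317% and 0.0444% in pregnant 1 to 4. In non-pregnant 3 and 4 its share was 0.0242% and 0.0285%, below every pregnant cow. The share of miR-2407 was 0.0178% and 0.0262% there, inside the pregnant range of 0.0169% to 0.0334%.

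**Figure D1:**
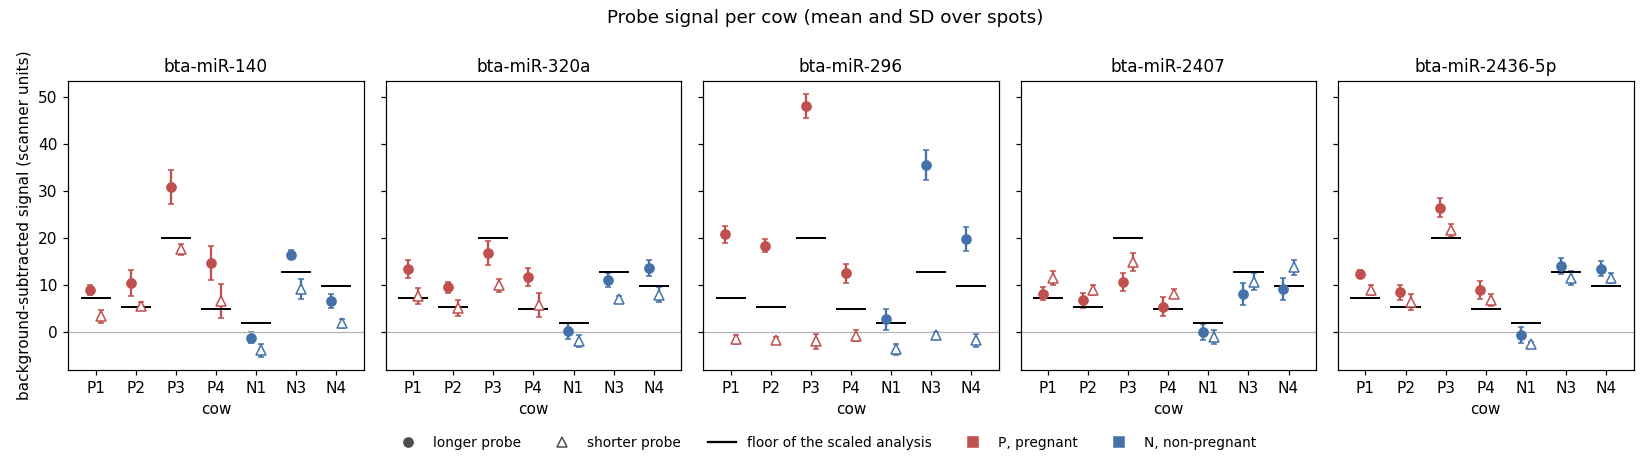
Background-subtracted signal (scanner units) of the longer probe (filled circles) and the shorter probe (open triangles) of each miRNA in pregnant cows P1 to P4 and non-pregnant cows N1, N3 and N4, as the mean and SD over up to 10 spots. Black bars give the floor of the scaled analysis in signal units, which ran from 2.09 in N1 to 20.0 in P3, and the shorter miR-296 probe stayed below 0 in all 7 cows.

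Single probes showed how the calls arose. Each probe is printed in 10 spots per array, of which 7 to 10 remained after outlier spots were left out, and the software marks each spot that is well above background. The longer miR-296 probe gave a mean signal of 20.8, 18.4, 48.1 and 12.5 in pregnant 1 to 4, and 2.76, 35.6 and 19.9 in non-pregnant 1, 3 and 4. Its spots were well above background in 37 of 40 cases in pregnant cows and 20 of 30 in non-pregnant cows, with none of 10 in non-pregnant 1. The shorter miR-296 probe, with 1 base less, ran from -1.94 to -0.74 in pregnant and from -3.63 to -0.50 in non-pregnant cows, and 0 of its 70 spots were well above background. The pair of miR-296 probes thus disagreed on every array but non-pregnant 1, where neither was detected.

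The longer miR-140 probe gave 8.99, 10.5, 30.8 and 14.7 in pregnant 1 to 4, and -1.10, 16.5 and 6.71 in non-pregnant 1, 3 and 4. Its spots were well above background in 32 of 40 cases in pregnant and 11 of 30 in non-pregnant cows, and of the latter 10 came from non-pregnant 3. The shorter miR-140 probe gave 3.39, 5.58, 17.6 and 6.72 against -3.84, 9.19 and 1.94. More than 5 of its 10 spots were well above background only in pregnant 3 and non-pregnant 3, the arrays with the highest signal for this miRNA in their groups.

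The longer miR-320a probe gave 13.5, 9.55, 16.8 and 11.7 in pregnant 1 to 4, and 0.24, 11.1 and 13.7 in non-pregnant 1, 3 and 4. The ranges overlapped, and the group means were 12.9 ± 3.08 (SD, n = 4) and 8.35 ± 7.14 (SD, n = 3). The shorter miR-320a probe ran from 5.26 to 9.96 in pregnant cows and from -1.89 to 8.02 in non-pregnant cows, with 9 of 40 and 6 of 30 spots well above background.

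The probes of miR-2407 went the other way round from those of miR-296 and miR-140. More spots of the shorter probe were well above background, 24 of 40 in pregnant and 20 of 30 in non-pregnant cows, against 15 of 40 and 10 of 30 for the longer one. The shorter miR-2407 probe gave 11.5, 8.98, 15.02 and 8.24 in pregnant 1 to 4, and -1.04, 10.8 and 13.8 in non-pregnant 1, 3 and 4. In pregnant 4 no spot of either miR-2407 probe was well above background, although the software called the miRNA detected there.

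Both probes of miR-2436-5p responded. The longer one gave 12.5, 8.49, 26.5 and 9.01 in pregnant 1 to 4, and -0.55, 14.1 and 13.6 in non-pregnant 1, 3 and 4. The shorter one gave 8.98, 6.43, 21.7 and 6.80 against -2.44, 11.5 and 11.5. On both probes non-pregnant 3 and 4 were above pregnant 2 and 4 and below pregnant 3. Spots well above background numbered 26 of 40 in pregnant and 20 of 30 in non-pregnant cows for the longer probe, and 19 of 40 and 18 of 30 for the shorter one.

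Among pregnant cows, the SD between cows ranged from 3.84 times the median standard error over spots, for the shorter miR-320a probe, to 24.8 times, for the longer miR-296 probe. The shorter miR-296 probe, which gave no signal, was outside this range at 1.44 times. These signals were not scaled between arrays, so the SD between cows holds differences in array brightness too. Negative-control spots, which match no bovine RNA, had a mean signal between 1.76 and 2.85 per array and a 95th percentile between 4.35 and 5.68. Of the 70 probe means (10 probes on 7 arrays), 52 lay above that percentile of their own array. None of the 10 probe means of non-pregnant 1 did, and 7 of them were below 0.

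For the comparison between groups, each array's probe means were divided by its 75th percentile, values under a scaled floor of 0.0122 were set to that floor, and the log2 values of a miRNA's probes were averaged. Scaled log2 levels of all 5 miRNAs overlapped between the groups. The level of miR-140 was -6.22, -5.86, -6.05 and -5.38 in pregnant 1 to 4, and -6.36, -6.18 and -6.36 in non-pregnant 1, 3 and 4. Non-pregnant 1 and 4 were at the floor, log2 -6.36, and non-pregnant 3 lay above pregnant 1. The means of miR-140 were -5.88 ± 0.36 (SD, n = 4) and -6.30 ± 0.11 (SD, n = 3). They differed by 0.42, and the standard error from the fit was 0.21. With 2 of 3 non-pregnant values at the floor, the size of this difference is set by the floor and no fold is given.

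The level of miR-2436-5p was -5.84, -5.90, -6.10 and -5.73 in pregnant 1 to 4, and -6.36, -6.29 and -6.03 in non-pregnant 1, 3 and 4. Pregnant 3, the brightest array and the one with the highest raw signal of this miRNA, had the lowest scaled level among the pregnant cows. The means of miR-2436-5p, -5.89 ± 0.16 (SD, n = 4) and -6.23 ± 0.17 (SD, n = 3), differed by 0.34, and the standard error was 0.13.

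The level of miR-320a was -5.88, -5.95, -6.36 and -5.65 in pregnant 1 to 4, and -6.36, -6.36 and -6.13 in non-pregnant 1, 3 and 4. That of miR-2407 was -5.96, -5.82, -6.36 and -5.95 against -6.36, -6.36 and -6.13. In both, the values at the floor were those of pregnant 3, non-pregnant 1 and non-pregnant 3. The means of miR-320a were -5.96 ± 0.30 (SD, n = 4) and -6.29 ± 0.13 (SD, n = 3), 0.33 apart (standard error 0.18). Those of miR-2407 were -6.02 ± 0.23 (SD, n = 4) and -6.28 ± 0.14 (SD, n = 3), 0.26 apart (standard error 0.16).

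The level of miR-296 was -5.61, -5.47, -5.73 and -5.70 in pregnant 1 to 4, and -6.16, -5.62 and -5.86 in non-pregnant 1, 3 and 4. Its means, -5.63 ± 0.12 (SD, n = 4) and -5.88 ± 0.27 (SD, n = 3), were 0.25 apart (standard error 0.15), and non-pregnant 3 lay above pregnant 3 and 4. Its shorter probe was at the floor on all 7 arrays and had a difference of 0. The longer probe alone had a difference of 0.51, of which the average over the probe pair keeps 0.25. Without non-pregnant 1, and with divisors and floor set anew from the other arrays, the miR-296 difference was 0.064. In the main setting non-pregnant 1 entered with a longer-probe signal of 2.76, no spot of which was well above background. The parts of the array and of the rescaling in this change were not told apart.

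**Figure D2:**
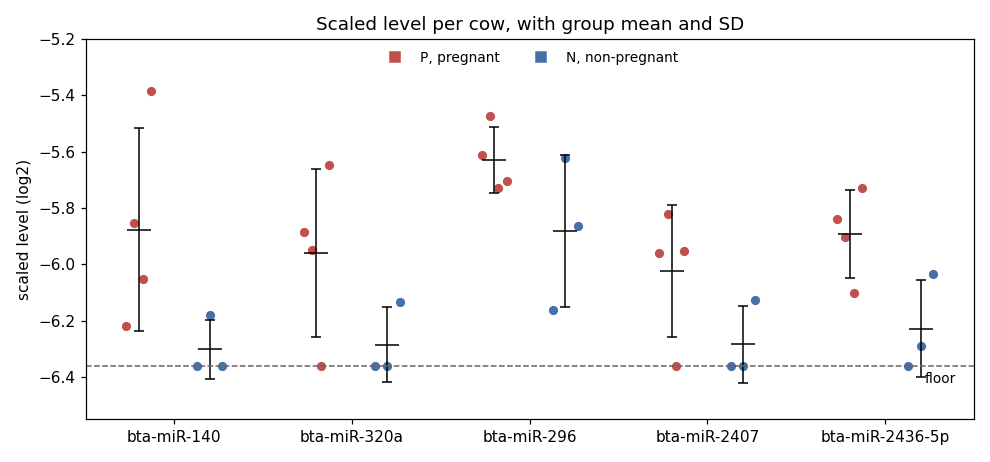
Scaled log2 level of each miRNA per cow (points), with the group mean and SD (black), for 4 pregnant and 3 non-pregnant cows. The dashed line is the floor at log2 -6.36, where miR-320a and miR-2407 each have 1 pregnant and 2 non-pregnant cows, and the groups overlap for all 5 miRNAs.

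The 5 miRNAs were chosen on these differences, so they are given as a description without a test. All 5 were positive in this scaling, with a median of 0.33. Of the 88 tested miRNAs 62 (70.5%) were positive, with a median of 0.18, and of the 45 tested miRNAs with only 11-base to 15-base probes 30 were positive, with a median of 0.077. Across all 88, limma with Benjamini-Hochberg adjustment called 0 (0%) at the threshold of 0.05, and the smallest adjusted p was 0.743. Before adjustment 1 miRNA (1.14%) had a limma p under 0.05. It was miR-2436-5p, chosen on this same contrast, so nothing is read from that p. The lowest pregnant level exceeded the highest non-pregnant level in 1 of 88 miRNAs (1.14%), miR-142-5p, and in none of the 5. Ordered by p on the pregnant side among miRNAs with such short probes, the last of the 5 was miR-2407 (log2 0.26). The next, just outside, were miR-23a (0.30), miR-30d (0.47) and miR-188 (0.28).

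Array brightness moved with where the floor fell. In signal units the floor stood at 7.36, 5.38, 20.0 and 5.04 in pregnant 1 to 4, and at 2.09, 12.8 and 9.95 in non-pregnant 1, 3 and 4. Of 33 probe means with more than 5 of 10 spots well above background, 8 were set to the floor, 4 in pregnant 3 and 4 in non-pregnant 3. One of these was the longer miR-320a probe, with 10 of 10 spots well above background and a mean of 16.8 in pregnant 3 and 11.1 in non-pregnant 3. Conversely, 7 of 25 probe means with no spot well above background stayed above the floor, 5 in pregnant 4, 1 in pregnant 2 and 1 in non-pregnant 1. The part of brightness in the group differences was not tested.

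The direction of some of the 5 miRNAs changed with quantile scaling, and that of all 5 with normexp background correction. Without scaling between arrays all 5 differences were positive, at 0.33 for miR-140, 0.13 for miR-320a, 0.13 for miR-296, 0.012 for miR-2407 and 0.082 for miR-2436-5p, and 76 of 88 tested miRNAs (86.4%) were positive. In non-pregnant 1 all 5 were at the floor of that setting, log2 3.09, so each non-pregnant mean includes a floor value. The deposited values below, also unscaled, leave that array out. With quantile scaling miR-140 was at 0.25 and miR-296 at 0.0095, while miR-320a (-0.019), miR-2407 (-0.20) and miR-2436-5p (-0.12) were negative. Of the 88 tested miRNAs, 39 were then positive, with a median of -0.017. With normexp, which adds 50 to every spot and so more than any mean signal of the 10 probes, all 5 were negative, between -0.22 and -0.18. Only 8 of the 88 tested miRNAs were positive there, with a median of -0.19. The standard error was 0.42 for each of the 5. Nothing particular to the 5 is read from these values, and the cause of the shift was not tested. With the floor doubled, miR-140 was at 0.068, miR-320a at 0.027 and miR-296 at 0.15, while miR-2407 and miR-2436-5p had a difference of 0. Every probe level of miR-2407 and miR-2436-5p lay below the doubled floor on every array. Their difference of 0 was therefore set by the floor, and nothing about the groups is read from it. For miR-140 and miR-320a only the longer probe in pregnant 4 exceeded the doubled floor, at log2 -4.82 and -5.15. With the floor halved, the differences were 0.95 for miR-140, 0.73 for miR-320a, 0.60 for miR-2407 and 0.69 for miR-2436-5p, and miR-296 stayed at 0.25. Of the 88 tested miRNAs, 67 were positive there (median 0.29). With the software's total per miRNA, scaled and floored in the same way, they were 1.11 for miR-140, 0.54 for miR-320a, 0.73 for miR-296, 0.51 for miR-2407 and 0.79 for miR-2436-5p, and 54 of 88 tested miRNAs were positive (median 0.24). Non-pregnant 1 entered there with the software's value of 0.1 for each of the 5, and the standard errors were 0.58 to 0.62.

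The authors' deposited log2 table is unscaled and leaves undetected miRNAs blank, so non-pregnant 1 does not enter. Computed from that table, the difference was 0.45 for miR-140 and negative for miR-320a (-0.32), miR-2407 (-0.38) and miR-2436-5p (-0.19). The standard error was 0.74 for each of these, larger than the difference itself. Of the 85 miRNAs compared there, 62 were positive, with a median of 0.29. The table has no entry named miR-296. Its entry named miR-296-3p holds values for 6 arrays that follow the total signal of miR-296 at the constant offset of the whole table, to within 4.1e-07.

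**Figure D3:**
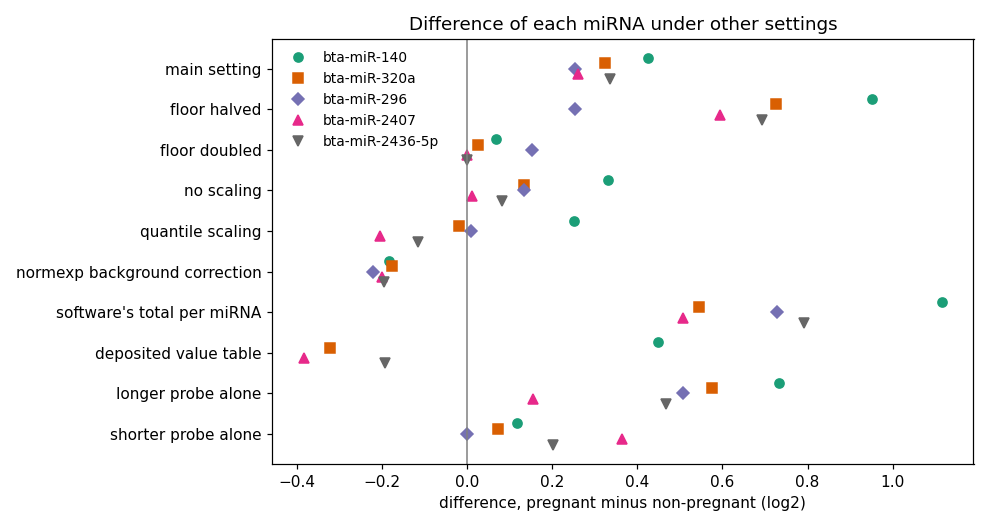
Difference between pregnant and non-pregnant cows (log2, horizontal axis) of each miRNA under the main setting and other settings, 1 point per miRNA and setting. miR-140 lies above 0 in every setting shown except normexp correction, and miR-320a, miR-2407 and miR-2436-5p lie below 0 with quantile scaling, normexp and the deposited table.

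Both probes of a miRNA had differences of the same sign, or 0, on the scaled levels, but of unequal size. The longer and shorter probes had differences of 0.73 and 0.12 for miR-140, 0.58 and 0.074 for miR-320a, and 0.47 and 0.20 for miR-2436-5p. For miR-2407 the order was turned, at 0.15 for the longer and 0.37 for the shorter probe. The shorter probes of miR-140 and miR-320a and the longer probe of miR-2407 lay at the floor in each of the 3 non-pregnant cows, which leaves no room for a negative difference.

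Related miRNAs gave little signal. miR-320b, the other member of the miR-320 family on the array, was detected on 0 of 7 arrays, with probe means from -1.83 to 5.84. miR-2436-3p, the opposite arm of miR-2436-5p, was detected on none, with probe means from -3.90 to 5.03. In a list of 50 miRNAs of imprinted loci (the DLK1-DIO3 region, MEST, IGF2 and GNAS), miR-296 was the 1 detected on any array, against 124 of all 744 miRNAs (16.7%). The list is not complete. Another 7 miRNAs of such loci, added after the data were seen, were detected on 0 arrays, among them miR-6123, the gene table's neighbour of MIR296, and miR-134.

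Among the 57 other tested miRNAs at the floor on at most 2 arrays, the scaled levels most like those of miR-140 were those of let-7b (Pearson r = 0.87 over 7 arrays). For miR-320a and miR-2436-5p it was miR-2899 (r = 0.93 and 0.82), for miR-2407 miR-2291 (r = 0.89) and for miR-296 miR-2885 (r = 0.83). These values share each array's divisor and floor and are given as a description.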

How the data were processed

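Per the labels, RNA was taken from plasma with a serum and plasma kit and labelled with Cy3. Agilent Feature Extraction 11.0.1.1 made the scanner files, per the file headers. Their deposited intensity per spot is detrended and has the array's own background removed, with no scaling between arrays. The software's other flags (detected, well above background, outlier) were used as deposited. The intensity per miRNA is set to 0.1 where it was not called detected. The authors' deposited log2 table matched the array by name for 730 of 766 entries. How it was made is not stated in the labels or headers.

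Controls and outlier spots (558 to 1149 per array) were dropped, and saturation was marked for 0 spots. The scaling percentile (75th) used the 57 probes with over 50% of spots well above background on every array. For the floor, the lowest scaled value of a detected probe was found per array, and the median of these 7 values was taken. miRNAs detected on at least 3 arrays (88) were fitted with limma 3.58.1 in R 4.3.3, two-sided, threshold 0.05, with no covariate, and differences within 1e-09 of 0 were set to 0. The fit was tested on simulated data.

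The members, lists and rules were chosen with earlier results of these data known. The named miRNAs are the 5 members, their relatives and imprinted-locus miRNAs on the array, the most alike miRNA of each, and those next in order. The rule's seed matches could not be made without mature sequences. Alternatives changed scaling, background correction, spot summary, filter, floor, block and arrays. Each cow was 1 sample, and precision is limited by having 7 arrays. Slide row and group cannot be told apart, since each group lay in a row of its own.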

Additional observations from a re-analysis of the deposited data

Results flagged for a closer look

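For the 5 miRNAs, 20 sets of values from the 4 pregnant cows (scaled levels, total signals and both probes) were checked for a cow far from the other 3, and chance flags about 1 in 20 such sets. The signal of the shorter miR-2436-5p probe stood out in pregnant 3, at 21.7, where pregnant 1, 2 and 4 had 8.98, 6.43 and 6.80 (the gap to the nearest was 0.832 of the range). Pregnant 3 was also the brightest array by summed signal.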

How the results depend on the processing

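The count of miRNAs past the adjusted threshold was 0 in the main setting and in all 19 alternatives run, including each array left out (lowest 0, highest 0). The unadjusted count, 1 in the main setting, ran from 0 to 9 with an array left out, the 9 without pregnant 3. Negative differences came with normexp for miR-140 (-0.18), miR-320a (-0.18), miR-296 (-0.22), miR-2407 (-0.20) and miR-2436-5p (-0.19), where the median of all 88 was also negative (-0.19). They came with quantile scaling for miR-320a (-0.019), miR-2407 (-0.20) and miR-2436-5p (-0.12), and with the deposited table for miR-320a (-0.32), miR-2407 (-0.38) and miR-2436-5p (-0.19). The standard error was 0.74 for each difference from the deposited table. The cause was not tested. With an array left out the differences stayed positive, from 0.24 to 0.48 for miR-140, 0.20 to 0.38 for miR-320a, 0.064 to 0.38 for miR-296, 0.092 to 0.29 for miR-2407 and 0.12 to 0.40 for miR-2436-5p. Each run with an array left out set its scaling probes, divisors, floor and tested miRNAs anew. With cow number as a replicate block, the count was 0 and the 5 differences were 0.42, 0.32, 0.20, 0.19 and 0.34 for miR-140, miR-320a, miR-296, miR-2407 and miR-2436-5p. The design text counts 7 cows, so equal numbers are names of different animals. Deviations of cows numbered 1, 3 and 4 correlated with their namesakes at 0.094, 0.65 and -0.20, and 2 of the 3 pregnant cows correlated best with their own number. With so few cows this check cannot decide on pairing. The main fit used none, as the cows were different animals. Scaling on the 75th percentile of all probes was not run, since that percentile was below 0 in non-pregnant 1 (-0.29). Low signal over background limits all 5: in non-pregnant 1 none of the 5 could be measured.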
